A study of Mus musculus with 58 samples.

Results

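The 42 genes described here encode developmental transcription factors, and they were taken by symbol from the 24077 genes of a count table of mouse oocytes, morulae and extraembryonic ectoderm. All 42 were in the table. They comprise 8 T-box genes, 10 SOX genes, 4 ZIC genes, 5 forkhead genes, 8 basic helix-loop-helix (bHLH) genes, 4 zinc finger genes other than ZIC, 2 nuclear receptor genes and 1 POU gene. The series has 58 samples, of which 40 are CUT&RUN samples not analysed here. Of the 18 RNA samples, 14 have columns in the table and the other 4, wild-type morulae of reciprocal B6 and PWK crosses, were not used here.

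The fully grown oocytes (FGO) were of strain B6.129, with 2 libraries of the Pcgf1/6 double knockout (KO) and 2 of wild-type controls (CTR). Morulae, the compacted preimplantation embryos, came from the cross B6.129 x PWK, with 2 libraries labelled as Pcgf1/6 double maternal knockout (matKO) and 2 CTR libraries. The extraembryonic ectoderm (ExE), the trophoblast tissue next to the epiblast after implantation, came from the same cross, with 4 matKO and 2 CTR libraries. In a maternal knockout the oocyte lacks the gene and the sperm brings an intact copy. The labels name neither the deleting Cre line nor the number of animals behind a library, so p-values measure the spread between libraries, which may be technical.

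PCGF1 and PCGF6 belong to variant forms of Polycomb repressive complex 1 (PRC1), an enzyme that places ubiquitin on histone H2A and helps to keep developmental genes silent in cells that do not use them. The PCGF1 complex contains KDM2B, which binds unmethylated CpG dinucleotides, and the PCGF6 complex contains the DNA-binding proteins MGA, MAX and E2F6. T-box, SOX, ZIC, forkhead and neurogenic bHLH genes are classical Polycomb targets, since each is needed in a few embryonic tissues and is off elsewhere. A growing oocyte and an early trophoblast use only a few of them.

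Pcgf1 had counts-per-million (CPM) values of 34.8 and 22.8 in KO oocytes, against 1406 and 1100 CPM in CTR oocytes (log2 fold change −5.56, SE 0.24, adjusted p = 2.0e-05 by edgeR's quasi-likelihood test). Pcgf6 had 177 and 220 CPM in KO oocytes, against 396 and 429 CPM in CTR oocytes (log2 fold change −1.14, SE 0.19, adjusted p = 0.0102). The labels do not give the deleted part of Pcgf6, so the remaining reads do not tell whether its product was made. Library totals were 19805264 to 26364085 counts in oocytes, 1299715 to 1685510 in morulae and 3397585 to 4361832 in ExE, where only reads assigned to a parent were counted. A floor of 3 counts was therefore worth 0.114 to 0.151 CPM in oocytes, 1.78 to 2.31 CPM in morulae and 0.688 to 0.883 CPM in ExE. All 12 oocyte markers were tested in the oocyte libraries, and 0 were called between KO and CTR by edgeR or DESeq2, with 1 at an unadjusted p under 0.05. ExE matKO replicate 3 stood apart, with 35.1% of its autosomal counts assigned to the mother against 51.2 to 51.5% in the other 3 matKO libraries.

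The promoter windows that RefSeq lists for GRCm38.p6, the release behind mm10, were matched by symbol for 28 of the 42 genes. Each window covers 300 bases, 250 before and 50 after a transcript start. The members' first windows held a median of 21.5 CpG dinucleotides, against 7 in all 27025 genes with a window and 13 in the 17492 protein-coding ones. At least 20 CpG stood in 16 of the 28 windows (57.1%), in 26.8% of all genes' windows and in 36.1% of protein-coding ones. Motifs were counted in the same first windows, on either strand. The E-box CACGTG of MGA and MAX occurred in 3 members (10.7%), in 7.24% of all genes and in 7.90% of protein-coding ones. The E2F motif TTCCCGC occurred in 1, Olig2 (3.57%), in 4.66% of all genes and in 5.99% of protein-coding ones. The T-box motif GGTGTGA occurred in 0, in 3.96% of all genes and in 3.68% of protein-coding ones. Another window of Sox6, not its first, held 1 GGTGTGA. A match, or none, does not say whether a factor was bound.

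Windows of 5 members are shown, picked from the 28 with a window because their RNA differed in kind. Pou3f1, Osr2, Zic2 and Foxc2 are among the members with no window, so the CpG values leave them out. Sox1 and Nr2f1 had counts in both KO oocyte libraries and almost none in CTR oocytes, Tbx18 and Sox21 had most of their ExE counts in matKO libraries, and Tbx4 was at the same level in KO and CTR oocytes. CpG dinucleotides are in capitals. The Sox1 window has 37 (chr8:12395269-12395568, plus strand), the Nr2f1 window 23 (chr13:78198824-78199123, minus strand), the Tbx18 window 15 (chr9:87731211-87731510, minus strand), the Sox21 window 22 (chr14:118236981-118237280, minus strand) and the Tbx4 window, at a start inside the gene, 8 (chr11:85896515-85896814, plus strand).
Sox1: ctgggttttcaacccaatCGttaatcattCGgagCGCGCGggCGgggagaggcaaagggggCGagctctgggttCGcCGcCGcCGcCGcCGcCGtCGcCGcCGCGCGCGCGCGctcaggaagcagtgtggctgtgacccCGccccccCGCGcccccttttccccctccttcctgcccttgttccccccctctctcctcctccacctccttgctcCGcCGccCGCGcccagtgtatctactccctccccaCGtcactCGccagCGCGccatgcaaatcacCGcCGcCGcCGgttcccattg
Nr2f1: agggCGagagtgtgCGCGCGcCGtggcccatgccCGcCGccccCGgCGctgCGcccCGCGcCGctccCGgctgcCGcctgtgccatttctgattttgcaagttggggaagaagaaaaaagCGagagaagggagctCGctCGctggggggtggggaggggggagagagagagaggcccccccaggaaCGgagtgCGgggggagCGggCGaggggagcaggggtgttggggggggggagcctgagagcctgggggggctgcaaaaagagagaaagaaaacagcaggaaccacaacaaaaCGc
Tbx18: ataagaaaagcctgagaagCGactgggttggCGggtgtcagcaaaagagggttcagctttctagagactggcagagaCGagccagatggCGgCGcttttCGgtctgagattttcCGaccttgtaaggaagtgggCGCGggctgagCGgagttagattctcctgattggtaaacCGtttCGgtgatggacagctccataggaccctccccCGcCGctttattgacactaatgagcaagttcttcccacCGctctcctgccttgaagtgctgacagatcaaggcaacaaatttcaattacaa
Sox21: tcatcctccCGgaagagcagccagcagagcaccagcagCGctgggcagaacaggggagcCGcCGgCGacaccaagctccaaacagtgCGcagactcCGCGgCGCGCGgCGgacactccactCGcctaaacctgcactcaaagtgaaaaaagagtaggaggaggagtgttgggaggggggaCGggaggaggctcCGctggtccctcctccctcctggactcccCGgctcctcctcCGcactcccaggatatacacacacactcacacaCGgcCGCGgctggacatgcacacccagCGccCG
Tbx4: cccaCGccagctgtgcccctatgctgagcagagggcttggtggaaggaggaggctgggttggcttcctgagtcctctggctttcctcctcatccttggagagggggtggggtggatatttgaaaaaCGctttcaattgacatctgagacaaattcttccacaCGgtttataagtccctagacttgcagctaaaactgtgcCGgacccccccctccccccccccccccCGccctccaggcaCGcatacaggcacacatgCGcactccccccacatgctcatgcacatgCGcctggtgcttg

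In oocytes the comparison asked which of these genes were expressed at a higher level in the Pcgf1/6 double knockout. Of the 42 members, 10 had no count in any oocyte library (Tbx2, Sox9, Sox10, Sox14, Zic1, Zic4, Neurog1, Neurog2, Neurod1 and Sall1) and 18 had at most 3 counts in every one. Pou3f1, Nr2f1, Nr2f2, Sox1 and Osr2 rose in KO oocytes by edgeR and 0 members fell, among the 12 members that passed the expression filter. DESeq2's Wald test, run on the 32 members with a count, called 7 higher and 0 lower. These were the same genes but Sox1, with Sox6, Sox8 and Foxc1 added. Over all 18622 genes with a count, that test called 817 higher and 371 lower. Over all 13459 genes tested by edgeR, 720 (5.35%) were called higher and 252 (1.87%) lower at a Benjamini-Hochberg adjusted p under 0.05. Pou3f1, Nr2f1 and Sox1 passed the filter only through their KO counts and so had to be higher. Summed over all 42 members, levels were 173 and 127 CPM (3803 and 2513 counts) in KO oocytes, against 98.4 and 112 CPM (2595 and 2874 counts) in CTR oocytes. Tbx4 made up most of the CTR counts, and without it the sums were 86.9 and 53.9 CPM in KO oocytes, against 24.7 and 25.5 CPM in CTR oocytes. Both sums were higher in both KO libraries, more so in replicate 1. Fold changes of the 12 had a median of 1.32 on the log2 scale, against 0.00 over all genes.

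**Figure D1:**
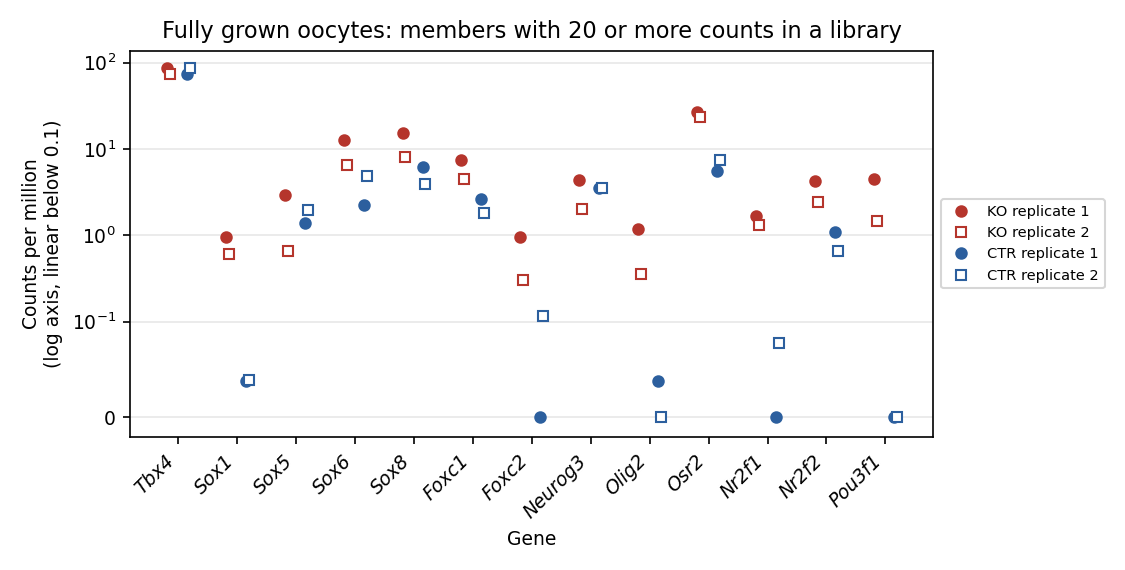
CPM (log axis, linear below 0.1) of the 13 members with 20 or more counts in an oocyte library, with a point for each KO (red) and CTR (blue) library. Pou3f1, Nr2f1, Sox1 and Olig2 lie near or at 0 in both CTR libraries, and Tbx4 has KO and CTR points at the same height.

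No T-box member was called in oocytes by edgeR or by DESeq2's Wald test, and 0 of the 2 tested by edgeR had an unadjusted p under 0.05. Tbx4, which acts in the hindlimb bud and the allantois, had 1890 and 1445 counts (85.9 and 73.0 CPM) in KO oocytes, against 1945 and 2218 counts (73.8 and 86.2 CPM) in CTR oocytes. Those levels overlapped, with a log2 fold change of −0.11 (SE 0.15, adjusted p = 0.732). Tbx5, needed in the heart and forelimb, had 16 and 8 counts in KO oocytes, against 16 and 4 in CTR oocytes (log2 fold change 0.45, SE 0.73, adjusted p = 0.785). The other T-box members were below the filter. Tbx18 had 13 and 3 counts in KO oocytes, against 1 and 0 in CTR oocytes, a ratio of 19.9 (95% exact counting interval 3.10 to 836). Tbx1, a regulator of the pharyngeal arches, had 11 and 6 counts in KO oocytes, against 6 and 0 in CTR oocytes. Tbx20, which acts in the heart, ran the other way with 3 and 1 counts in KO oocytes, against 6 and 12 in CTR oocytes. Tbx15 had 3 to 9 counts in each oocyte library, and T, or Brachyury, the regulator of primitive streak mesoderm, at most 4.

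Of the 4 SOX genes tested in oocytes, edgeR called Sox1 higher, and Sox6 and Sox8 lay wholly above CTR without a call by edgeR. DESeq2's Wald test called Sox6 (adjusted p = 0.0363) and Sox8 (adjusted p = 0.0393). Sox1, an early marker of neural ectoderm, had 21 and 12 counts (0.954 and 0.606 CPM) in KO oocytes, against 1 and 1 (0.0379 and 0.0389 CPM) in CTR oocytes. The ratio was 20.6 (95% exact counting interval 5.26 to 177, adjusted p = 0.0205). The call was lost with DESeq2's Wald test (adjusted p = 0.0635) and without CTR replicate 1 (adjusted p = 0.100) or CTR replicate 2 (adjusted p = 0.101). Without KO replicate 1, Sox1 did not pass the expression filter. Sox8, a SoxE gene of neural crest and testis, had 15.2 and 8.18 CPM in KO oocytes, against 6.11 and 3.89 CPM in CTR oocytes (log2 fold change 1.10, SE 0.33, adjusted p = 0.0860). The groups did not overlap. Sox6, a SoxD gene of cartilage and muscle, had 12.8 and 6.51 CPM in KO oocytes, against 2.24 and 4.86 CPM in CTR oocytes (log2 fold change 1.31, SE 0.43, adjusted p = 0.119). Its partner Sox5 overlapped, with 65 and 13 counts in KO oocytes against 37 and 50 in CTR oocytes. Sox11, expressed in neural progenitors, was below the filter with 16 and 6 counts in KO oocytes, against 0 and 1 in CTR oocytes, a ratio of 27.4 (interval 4.43 to 1131). Sox18 and Sox21 had at most 1 count in any oocyte library.

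Pou3f1 (Oct6), a POU factor of the postimplantation epiblast and of Schwann cells, had no count in CTR oocytes. It had 98 and 29 counts (4.45 and 1.46 CPM) in KO oocytes, against 0 and 0 in CTR oocytes. Set against a floor of 3 counts over the CTR group this was at least 52.7-fold higher (adjusted p = 0.0073). Both KO libraries were above both CTR libraries, and replicate 1 had the larger value.

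The COUP-TF nuclear receptors, which pattern neural and mesenchymal tissues, both rose. Nr2f1 had 37 and 26 counts (1.68 and 1.31 CPM) in KO oocytes, against 0 and 2 (0 and 0.0778 CPM) in CTR oocytes. The ratio was 39.2 (95% exact counting interval 10.4 to 331, adjusted p = 0.0107). Both CTR counts came from replicate 2. The fitted log2 fold change of 5.00 became 8.06 without that library and 4.06 without CTR replicate 1, and the call held in both. Nr2f2 had 93 and 48 counts (4.23 and 2.42 CPM) in KO oocytes, against 29 and 17 (1.10 and 0.661 CPM) in CTR oocytes. Its log2 fold change of 1.79 (SE 0.44, adjusted p = 0.0444) lost the call without KO replicate 1 (adjusted p = 0.153) or CTR replicate 2 (adjusted p = 0.196). Both genes overlap a noncoding neighbour in the table (A830082K12Rik and B130024G19Rik), as Sox5 and Sox6 do, and unstranded reads of such pairs cannot be told apart.

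Osr2, an odd-skipped zinc finger gene of the palate and urogenital system, was measured with the most counts among the members that rose. It had 592 and 461 counts (26.9 and 23.3 CPM) in KO oocytes, against 146 and 191 (5.54 and 7.43 CPM) in CTR oocytes. The KO mean was 25.1 ± 2.56 CPM and the CTR mean 6.48 ± 1.34 CPM (SD, n = 2 each), with a log2 fold change of 1.85 (SE 0.22, adjusted p = 0.0028). The call held in all 8 alternatives run, with adjusted p between 3.5e-09 and 0.0060. Its paralog Osr1 had 1 count in 1 KO library. Wt1, needed in kidney and gonad, had 0 and 0 counts in KO oocytes, against 9 and 2 in CTR oocytes, at least 2.94-fold lower against the floor of 3 counts over the group.

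Among forkhead genes, Foxc1, a regulator of somites and head mesenchyme, had 7.41 and 4.54 CPM in KO oocytes, against 2.62 and 1.79 CPM in CTR oocytes. The groups did not overlap, and the log2 fold change of 1.32 (SE 0.34) had an adjusted p of 0.0566 by edgeR. It was called by DESeq2's Wald test (adjusted p = 0.0376) and by edgeR without KO replicate 2 (adjusted p = 0.0293). Its paralog Foxc2 had 21 and 6 counts in KO oocytes, against 0 and 3 in CTR oocytes, a ratio of 11.2 (95% exact counting interval 3.45 to 57.7). Foxf1 had 7 and 2 counts in KO oocytes, against 1 and 0 in CTR oocytes. Foxa1 and Foxd3 had at most 3 counts in a library. All 5 forkhead members had a higher mean in KO oocytes, at these low counts.

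Among bHLH genes, Olig2, which specifies motor neurons and oligodendrocytes, had 26 and 7 counts in KO oocytes, against 1 and 0 in CTR oocytes, a ratio of 41.1 (95% exact counting interval 6.88 to 1672). Neurog3, the endocrine regulator of the pancreas, overlapped with 97 and 40 counts in KO oocytes against 94 and 91 in CTR oocytes (log2 fold change −0.27, SE 0.37, adjusted p = 0.744). Olig1 had 5 and 3 counts in KO oocytes, against 0 and 6 in CTR oocytes. Twist1 and Hand2 had at most 2 counts. The ZIC genes were near silent, with at most 4 counts (Zic5 in KO replicate 2) in any oocyte library.

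Of the 12 members tested in oocytes, 8 had both KO libraries above both CTR libraries and 0 had both below, while 32.1% of all genes tested lay wholly above and 18.1% wholly below. Pou3f1, Nr2f1 and Sox1 are among the 8, and they passed the filter only through their KO counts. Over all 42 members, silent ones included, the counts were 16 above and 2, Wt1 and Tbx20, below. No share over all genes was taken without the filter to set beside these. Some of the 16, such as Foxd3 and Foxa1, rest on at most 3 counts in a library. The number of members called depended on the libraries and the filter. It was 3 without KO replicate 1 and 8 without KO replicate 2. With no filter 11 of 32 were called higher, where 5.93% of all genes were, adding Sox6, Sox8, Sox11, Foxc1, Foxc2 and Olig2.

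Members of the same families outside the set also included genes that rose in KO oocytes. Of 18 tested bHLH genes outside it, 12 were called higher and 0 lower. The germline regulators Sohlh1 and Sohlh2, the Notch target Hes1 and its relative Hes6 were among them. Their log2 fold changes were 7.39 (Sohlh1), 3.71 (Sohlh2), 3.84 (Hes1) and 1.45 (Hes6). Of 5 other SOX genes tested, Sox30 (6.18) and the pluripotency gene Sox2 (3.40) were called higher. Foxa3 (3.01) and Foxq1 (3.44) were called higher among 15 other forkhead genes, and Sall3 (6.00) among 7 paralogs of the remaining members. Of 5 other T-box genes tested, 0 were called by edgeR or by DESeq2's Wald test and 1 had an unadjusted p under 0.05.

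Follicle cells stick to oocytes and use some of the same genes, and in a bulk library fewer such cells and less RNA per cell cannot be told apart. The 19 granulosa and cumulus markers summed to 191 and 105 CPM in KO oocytes, against 106 and 108 CPM in CTR oocytes. Of 13 tested, 1 was called higher, and it was Nr2f2 itself. Of these 13, 7 had a positive log2 fold change, with a median of 0.15. At an unadjusted p under 0.05 by edgeR, 2 of the 13 were higher, Nr2f2 and Ptgs2 (log2 fold change 1.88). In the other direction, 1 was lower, Cyp19a1 (−0.50). Foxl2 and Amh were at or under the floor of 3 counts in every oocyte library. They had 3 and 1 counts (Foxl2) and 0 and 0 (Amh) in KO oocytes, against 2 and 2 for each gene in CTR oocytes. The 9 stroma and theca markers summed to 3.54 and 2.68 CPM in KO oocytes, against 5.50 and 4.12 CPM in CTR oocytes. Of 10 stress genes, 9 were tested by edgeR, and Gadd45b and Cdkn1a were called higher and 0 lower. Of these 9, 8 had a positive log2 fold change, with a median of 1.41. DESeq2's Wald test called Atf3 and Egr1 higher as well. The part of any of these lists in the members' counts was not tested.

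**Figure D2:**
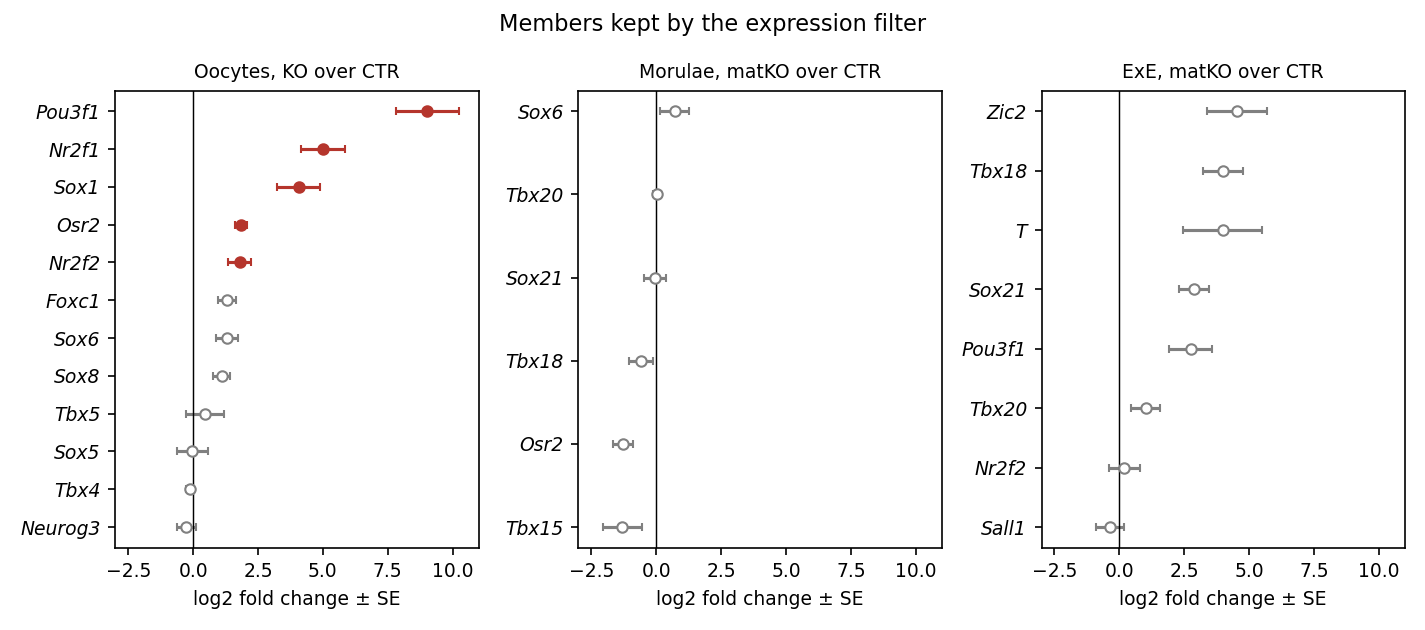
Log2 fold change with its SE for members that passed the expression filter, KO over CTR in oocytes (left) and matKO over CTR in morulae (middle) and ExE (right). Filled points passed the threshold, 5 in oocytes and 0 in the other stages; the oocyte value of Pou3f1, with no CTR count, is set by the prior count of the fit.

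In morulae, where the embryo's own genome is active, 0 of the 6 members tested were called, against 12 of 9063 genes (0.132%) in either direction. By edgeR, 1 member and 19.8% of all genes had an unadjusted p under 0.05, and DESeq2's Wald test called 0 members. Osr2 had 21 and 24 counts (16.2 and 17.8 CPM) in matKO morulae, against 53 and 84 (31.4 and 52.9 CPM) in CTR morulae. Both matKO values were below both CTR values, with a log2 fold change of −1.27 (SE 0.39, adjusted p = 0.150). Tbx18, an epicardial and mesenchymal gene, had 11 and 13 counts in matKO morulae, against 24 and 22 in CTR morulae (log2 fold change −0.59, SE 0.48, adjusted p = 0.531). Tbx15 had 9 and 3 counts in matKO morulae, against 12 and 26 in CTR morulae (log2 fold change −1.31, SE 0.75, adjusted p = 0.372).

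Tbx20 had 165 and 182 CPM in matKO morulae, against 152 and 198 CPM in CTR morulae. These overlapped, with a log2 fold change of 0.03 (SE 0.17, adjusted p = 0.949) and a sign that turned in the paternal counts alone. Sox21, a SoxB2 gene of neural and trophoblast cells, had 14.6 and 21.5 CPM in matKO morulae, against 21.9 and 16.4 CPM in CTR morulae (log2 fold change −0.05, SE 0.42, adjusted p = 0.967). Sox6 had 9.23 and 17.1 CPM in matKO morulae, against 8.31 and 8.19 CPM in CTR morulae (log2 fold change 0.71, SE 0.54, adjusted p = 0.506). Sox1, Nr2f1 and Pou3f1, which rose in KO oocytes, had at most 2 counts in any morula library, at or under the floor. Foxc2 and Olig2 had at most 7 and 1. Of all 42 members, 28 had at most 3 counts in every morula library, and a count of 0 here includes genes whose reads carry no strain variant.

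The Osr2 reads of morulae were mostly from the B6.129 mother's copy. All 45 assigned reads were maternal in matKO morulae (100%, 95% Clopper-Pearson interval 92.1 to 100), against 120 of 137 (87.6%, interval 80.9 to 92.6) in CTR morulae. The paternal reads were 0 and 0 in the matKO libraries, against 12 and 5 in the CTR libraries. Tbx18 reads were 45.8% maternal of 24 in matKO morulae (interval 25.6 to 67.2), against 10.9% of 46 in CTR morulae (interval 3.63 to 23.6). Tbx15 and Sox6 ran the other way. Tbx15 was 0% maternal of 12 in matKO morulae (interval 0 to 26.5), against 31.6% of 38 in CTR morulae (interval 17.5 to 48.6), and Sox6 28.6% of 35 in matKO morulae (interval 14.6 to 46.3), against 48.1% of 27 in CTR morulae (interval 28.7 to 68.1). The Sox6 shares of single libraries overlapped, at 58.3 and 13.0% in matKO morulae, against 35.7 and 61.5% in CTR morulae. For Tbx20 the shares were 57.2% of 460 reads in matKO morulae and 55.7% of 571 in CTR morulae. These intervals cover counting error only, and the shares were not tested.

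**Figure D3:**
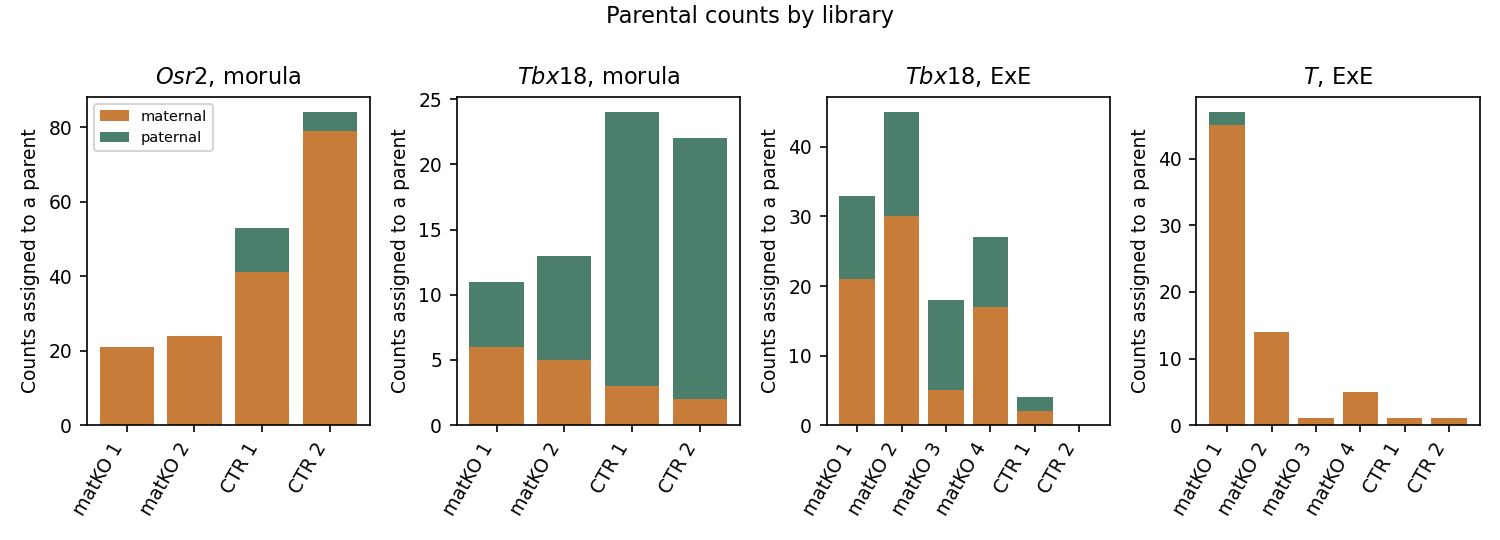
Counts assigned to the maternal (orange) and paternal (green) copy in each matKO and CTR library for Osr2 and Tbx18 in morulae and for Tbx18 and T in ExE. Osr2 has no paternal count in the matKO morulae, and T in ExE is almost wholly maternal with 47 of its 67 matKO counts in replicate 1.

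The oocyte and morula effects differed for Osr2, which rose in KO oocytes and had both matKO morulae below both CTR morulae without a call. Morula minus oocyte effect was −3.13 on the log2 scale (SE 0.47, adjusted p = 0.0044), and 386 of 14719 genes (2.62%) were called in this comparison. The call held in all 11 alternatives run, with adjusted p from 1.75e-06 to 0.0445. Oocyte counts cover the whole gene and morula counts only reads assigned to a parent. Another scaling moved the median difference of all genes from −0.07 to 0.08, small beside this value. For Sox6, the other member with 20 or more counts in a library of both stages, the difference was −0.60 (SE 0.72, adjusted p = 0.796). Pou3f1 was also called, but its morula counts of 0 and 0 in matKO and 2 and 2 in CTR give no usable size.

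In ExE the question was whether members appear late in embryos labelled as maternal knockouts. T, Tbx18, Sox21, Zic2 and Pou3f1, 5 of the 8 members tested, had all 4 matKO libraries above both CTR libraries and 0 had all below, but edgeR called none of them. Of the members below the filter, Tbx15 lay wholly above CTR too, which makes 6 of all 42. No share over all genes was taken without the filter for that count. DESeq2's Wald test called Tbx18 and Sox21 higher. Summed over the 42 members, counts were 520, 302, 219 and 180 in matKO ExE, against 116 and 67 in CTR ExE. By edgeR's quasi-likelihood test 0 of the 8 members tested and 0 of 8386 genes (0%) were called. At an unadjusted p under 0.05, 5 members (all higher) and 1161 genes (13.8%; 7.58% higher) passed, and DESeq2's Wald test called 143 genes higher and 71 lower. Of the genes tested, 12.5% had all matKO libraries above CTR and 11.3% all below. The 8 members had a median log2 fold change of 2.82, against 0.00 over all genes. Several passed the filter only through their matKO counts.

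**Figure D4:**
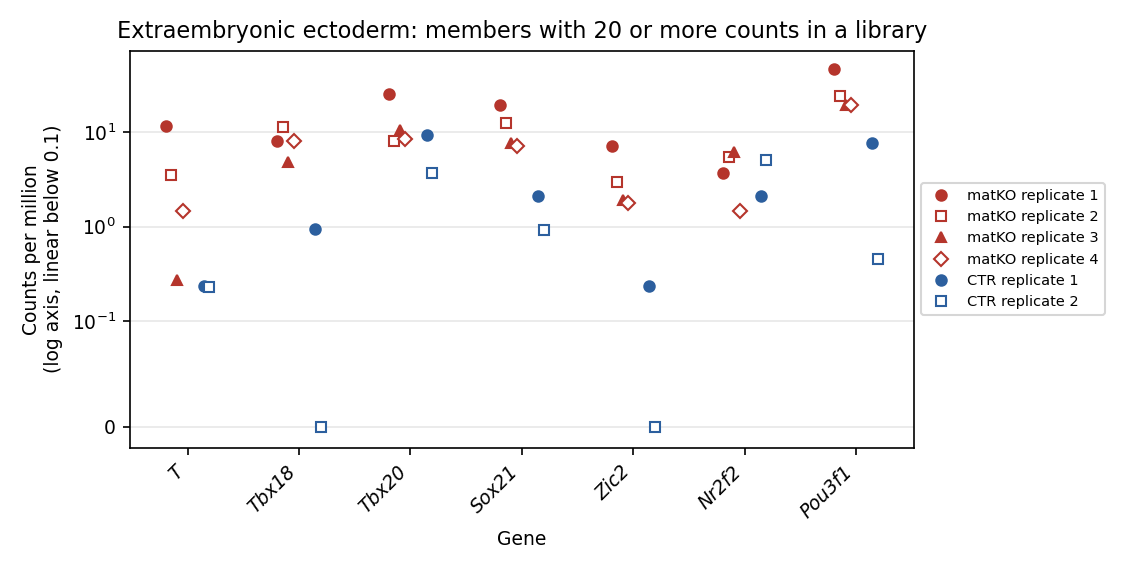
CPM (log axis, linear below 0.1) of the 7 members with 20 or more counts in an ExE library, with a point for each of the 4 matKO (red) and 2 CTR (blue) libraries. Tbx18, Sox21, Zic2 and Pou3f1 have every matKO point above both CTR points, and Tbx20 and Nr2f2 overlap.

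Tbx18 had 33, 45, 18 and 27 counts (8.07, 11.2, 4.86 and 7.95 CPM) in matKO ExE, against 4 and 0 (0.948 and 0 CPM) in CTR ExE. The ratio of 17.4 (95% exact counting interval 6.61 to 64.8) had an adjusted p of 0.120, and of 0.0520 without matKO replicate 3. Every matKO library was well above both CTR libraries. DESeq2's Wald test called it (adjusted p = 0.0015), as did edgeR with no filter (adjusted p = 0.0048), a setting that called 0.525% of all genes higher. Without CTR replicate 2 the log2 fold change was 3.06 and the adjusted p 0.960.

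Sox21, known in trophoblast stem cells and the developing nervous system, had 79, 50, 28 and 24 counts (19.3, 12.5, 7.56 and 7.06 CPM) in matKO ExE, against 9 and 4 (2.13 and 0.917 CPM) in CTR ExE. The log2 fold change was 2.89 (SE 0.58, adjusted p = 0.120), and 3.05 (adjusted p = 0.0523) without matKO replicate 3. DESeq2's Wald test called it (adjusted p = 0.0014). Zic2, a neural plate gene, had 29, 12, 7 and 6 counts in matKO ExE, against 1 and 0 in CTR ExE. Its ratio of 30.5 had a counting interval of 5.25 to 1227 and an adjusted p of 0.175, and 0.0809 without matKO replicate 3. Replicate 1 held more than the other libraries of either gene.

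Pou3f1 had 191, 95, 71 and 66 counts (46.7, 23.7, 19.2 and 19.4 CPM) in matKO ExE, against 32 and 2 (7.58 and 0.459 CPM) in CTR ExE. The groups did not overlap, but the CTR libraries differed widely, and the log2 fold change of 2.76 (SE 0.83) had an adjusted p of 0.255. It was 1.86 without CTR replicate 2 and 5.73 without CTR replicate 1. T had 47, 14, 1 and 5 counts (11.5, 3.50, 0.270 and 1.47 CPM) in matKO ExE, against 1 and 1 (0.237 and 0.229 CPM) in CTR ExE (log2 fold change 3.99, SE 1.52, adjusted p = 0.308). Replicate 3 was above CTR only by its smaller total, and without it the adjusted p was 0.100. Tbx15, below the filter, had 12, 6, 9 and 8 counts in matKO ExE, against 6 and 2 in CTR ExE.

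Tbx20 had 104, 32, 39 and 29 counts in matKO ExE, against 39 and 16 in CTR ExE, with overlap and a log2 fold change of 1.01 (SE 0.56, adjusted p = 0.449). Without matKO replicate 1 that value was 0.48. Nr2f2 had 15, 22, 23 and 5 counts in matKO ExE, against 9 and 22 in CTR ExE (log2 fold change 0.20, SE 0.60, adjusted p = 0.914), with a sign that turned without matKO replicate 3. Sall1, a kidney and limb gene, had 5, 10, 12 and 9 counts in matKO ExE, against 11 and 15 in CTR ExE (log2 fold change −0.37, SE 0.55, adjusted p = 0.804). Osr2, Sox1, Nr2f1, Foxc1, Foxc2, Neurog3, Sox5 and Tbx4 had no assigned count in any ExE library. Of all 42 members, 22 had no ExE count and 31 at most 3 in every library.

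Of the other genes of these families, edgeR called 0 in ExE. DESeq2's Wald test called Bhlhe40 higher and Egr1 lower, and 2 of 3 other SOX genes tested had an unadjusted p under 0.05 by edgeR. Sox2 had 23.2, 14.99, 3.24 and 10.01 CPM in matKO ExE, against 2.13 and 0 CPM in CTR ExE (log2 fold change 3.56, SE 1.10, adjusted p = 0.252). Eomes, the T-box gene of trophoblast stem cells, had 348, 284, 168 and 198 CPM in matKO ExE, against 104 and 24.5 CPM in CTR ExE (log2 fold change 1.95, SE 0.66, adjusted p = 0.318). Ascl2, a bHLH gene of the ectoplacental cone, had 68.2, 162, 219 and 232 CPM in matKO ExE, against 353 and 465 CPM in CTR ExE (log2 fold change −1.30, SE 0.49, adjusted p = 0.341).

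**Figure D5:**
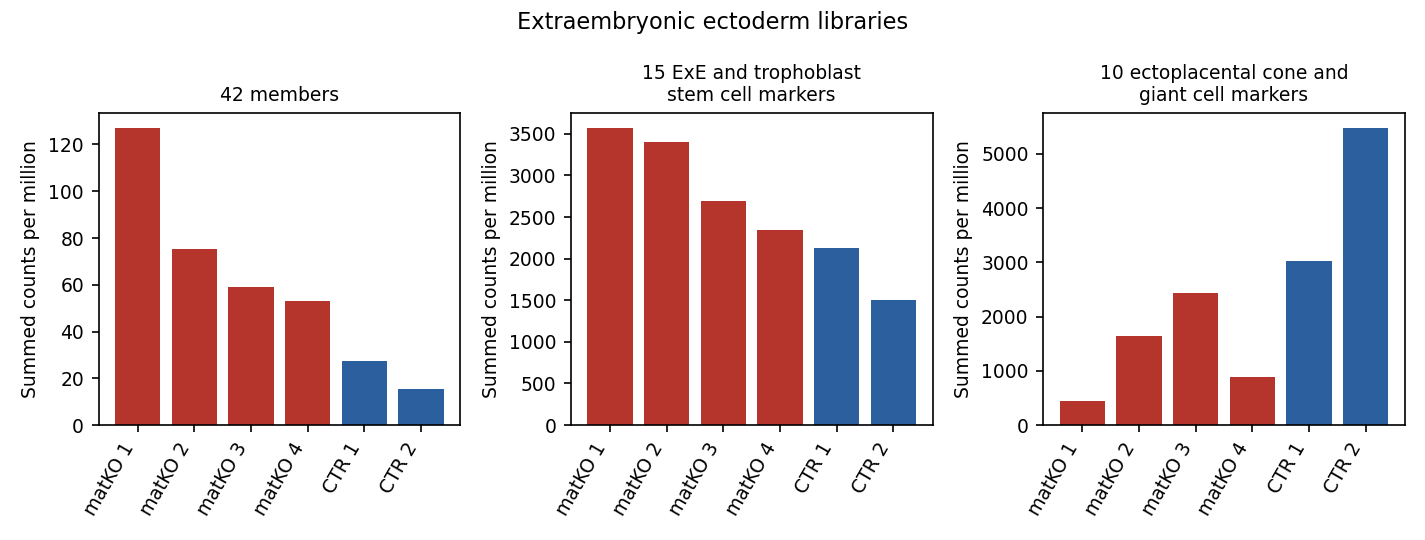
Summed CPM in each matKO (red) and CTR (blue) ExE library for the 42 members (left), 15 ExE and trophoblast stem cell markers (middle) and 10 ectoplacental cone and giant cell markers (right). The members and the stem cell markers are highest in the 4 matKO libraries, and the ectoplacental markers are highest in the 2 CTR libraries.

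Summed levels of cell type markers also differed between the ExE libraries. The 15 ExE and trophoblast stem cell markers, which include Sox21, summed to 3571, 3407, 2697 and 2342 CPM in matKO ExE, against 2130 and 1507 CPM in CTR ExE. By edgeR, 12 of the 13 tested had a positive log2 fold change and 0 were called. Tfap2c was the exception, at −0.97 (SE 0.34, adjusted p = 0.305). DESeq2's Wald test called Sox21 higher and Tfap2c lower. The 10 ectoplacental cone and giant cell markers summed to 451, 1634, 2439 and 889 CPM in matKO ExE, against 3023 and 5481 CPM in CTR ExE. Elf5, a defining ExE gene, was at 412 to 529 CPM in matKO ExE, against 307 and 383 CPM in CTR ExE. The 12 epiblast markers, with Pou3f1 among them, summed to 704 to 1080 CPM in matKO ExE, against 771 and 542 CPM in CTR ExE, and Pou5f1, Otx2 and Tdgf1 were at 0 in all 6 libraries. Pou5f1 and Tdgf1 were at 0 in morulae too, so that their 0 may only mean that no read could be assigned to a parent. Nanog had counts in matKO replicates 1 and 4 and Fgf5 in matKO replicate 4, and each was at 0 in the other ExE libraries. The 16 primitive streak and mesoderm markers, Eomes and T included, summed to 222 to 388 CPM in matKO ExE, against 154 and 116 CPM in CTR ExE. Eomes, which is also on the stem cell list, made up most of each matKO sum. The rest of the streak list overlapped between matKO and CTR in its sum, with Mesp1, Tbx6, Fgf8, Msgn1 and Cdx4 at 0 throughout. Mixl1 had counts in every matKO library and in neither CTR library. Lefty2, Mesp2 and Wnt3 had counts in some matKO libraries and in neither CTR library. Of the 5 streak markers tested by edgeR, 0 were called. At an unadjusted p under 0.05, 3 were higher (T, Eomes and Cdx1) and 1, Hand1, was lower. The 13 visceral endoderm markers summed to 53.0 to 74.2 CPM in matKO ExE, against 25.1 and 13.5 CPM in CTR ExE. The 2 tested by edgeR, Amn and Dab2, lay wholly above CTR without a call. Their log2 fold changes were 2.22 (Amn, adjusted p = 0.182) and 1.52 (Dab2, adjusted p = 0.117). DESeq2's Wald test called both higher, and edgeR with no filter called 2 of the 10 with a count higher. The 17 decidua and maternal blood markers summed to 27.1, 11.2, 7.83 and 2.36 CPM in matKO ExE, against 6.64 and 6.19 CPM in CTR ExE, with the 3 globin genes on the list at 0 throughout. The part of these cell types in the members' values was not tested.

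Parental shares in ExE could be given where a group had 10 or more assigned reads. In matKO ExE, T was 97.0% maternal of 67 reads (95% Clopper-Pearson interval 89.6 to 99.6), the most one-sided of the members. Maternal T reads were 45 of 47, 14 of 14, 1 of 1 and 5 of 5 in matKO ExE, against 1 of 1 and 1 of 1 in CTR ExE. Tbx18 was 59.3% maternal of 123 reads in matKO ExE (interval 50.1 to 68.1), with 27.8% in replicate 3 and 63.0 to 66.7% in the other 3 libraries. Sox21 was 40.3% maternal of 181 reads in matKO ExE, against 53.8% of 13 in CTR ExE, and Zic2 was 53.7% maternal of 54 in matKO ExE. Pou3f1 was 48.5% maternal of 423 reads in matKO ExE (interval 43.6 to 53.3), against 23.5% of 34 in CTR ExE (interval 10.8 to 41.2). Both parental copies of Tbx18, Sox21, Zic2 and Pou3f1 gave reads in matKO ExE.

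Of the 42 members, 19 reached 20 counts in a library of some stage, 13 in oocytes, 6 in morulae and 7 in ExE, and 2, Nr2f2 and Pou3f1, did so in both oocytes and ExE, at depths that differ between the stages. Tbx18, under 20 counts in oocytes, lay wholly above CTR in both. Pou3f1 rose in KO oocytes and lay wholly above CTR in matKO ExE, where it was not called. Its ExE minus oocyte effect was −5.42 (SE 2.30, adjusted p = 0.331), a size that rests on 0 CTR oocyte counts. For Nr2f2 the difference was −1.48 (SE 0.80, adjusted p = 0.446). In this comparison 264 of 12430 genes (2.12%) were called, and 0 members. Sox1 and Nr2f1 had counts in KO oocytes and at most 1 in any morula or ExE library, and T, Sox21 and Zic2 had counts in matKO ExE and at most 4 in any oocyte library, with that difference not testable at such counts.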

How the data were processed

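RNA of oocytes, morulae and ExE was sequenced from SMART-Seq v4 cDNA with Nextera XT libraries, per the labels' protocols, a chemistry that does not mark strand. The values used are raw counts of reads for each gene, as deposited, with 1 column for each oocyte library and a maternal and a paternal column for each morula and ExE library, per the file headers, which were summed here. The submitters' processing notes name STAR 2.7.3, RSEM 1.3.1 and the build mm10; the tool behind the counts and the parental assignment are not stated there. RNA was compared within each stage with edgeR 4.0.16 (TMM, filterByExpr, robust quasi-likelihood F test) on R 4.3.3, with Benjamini-Hochberg adjustment over all genes tested and a threshold of 0.05. Effects of 2 stages were compared by an interaction term. Fold changes are log2 values, KO or matKO over CTR, with SE from the F statistic. The fits were tested on simulated data.

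Alternatives were DESeq2 1.42.0 size factors and its Wald test, no filter, a replicate block, 1 parental copy alone, and each library left out. Counting intervals are exact at 95% and, like the floors of 3 counts, cover counting error only, because PCR copies were not marked by molecular identifiers. The 42 members and the marker and family lists were chosen with earlier results of these data known. Every library's value is given for members called or with 20 or more counts in a library of the stage, and other genes are named where called, at most 6 a list; Sox11, Tbx1, Tbx5, Tbx15, Sall1 and other members under that count, and Sox2, Eomes and Ascl2 in ExE, were named after their values were seen. Some genes of the lists are not reported here. Libraries of a stage that share a replicate number were not taken as pairs, since the labels give no shared animal or batch.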

Additional observations from a re-analysis of the deposited data

Results flagged for a closer look

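In matKO ExE, 1 library lay far from the other 3 for Tbx20. The gap of replicate 1 to its nearest neighbour was 0.854 of the group's range. The same library stood out for Pou3f1, with a gap of 0.834 of the range. Chance alone marks about 1 in 20 such groups. Replicate 1 also had the highest summed ExE marker level and the lowest ectoplacental marker level of the 4 matKO libraries, and the part of either in these values was not tested. For Osr2 the effect of the knockout differed between stages, with a morula minus oocyte difference of −3.13 on the log2 scale.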

How the results depend on the processing

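Of the alternatives run on the members named here, 230 kept direction and side of the threshold, 23 gained a call, 8 lost one and 11 changed sign. In oocytes, genes called higher and lower numbered 1104 and 526 with no filter and 1292 and 729 with the replicate block; leaving out 1 library gave 510 to 1078 higher and 183 to 951 lower, and 3 to 8 members higher, with 11 members higher under no filter. In morulae the genes called higher and lower were 15 and 39 with DESeq2 size factors, 79 and 120 with DESeq2's Wald test, 187 and 302 with no filter, 115 and 195 with the replicate block and 23 and 45 in paternal counts alone, with 1 higher in maternal counts alone. Leaving out 1 morula library gave 3 to 170 higher and 4 to 354 lower. In ExE they were 143 and 71 with DESeq2's Wald test, 69 and 43 with no filter, 471 and 407 with the replicate block and 2 and 3 in maternal counts alone, and leaving out 1 library gave 0 to 4 higher and 0 to 2 lower. Members called higher in ExE were 2, 3 and 6 under the first 3 of these settings. For the ExE minus oocyte difference the block gave 237 higher and 486 lower, and leaving out 1 library 9 to 116 higher and 93 to 237 lower. For the morula minus oocyte difference no filter gave 160 higher and 631 lower and the block 136 and 532, each with 1 member higher. Leaving out 1 library gave 12 to 227 higher and 112 to 331 lower, with 0 to 1 member higher and 1 to 2 lower. The cause of these shifts was not tested.

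Leaving out 1 library turned the sign of values that were not called. The ranges were −0.24 to 0.0066 for Tbx4, −1.34 to 0.61 for Sox5 and −0.81 to 0.10 for Neurog3 in oocytes, −0.16 to 0.25 for Tbx20 and −0.34 to 0.20 for Sox21 in morulae, and −0.32 to 1.00 for Nr2f2 in ExE. In paternal counts alone, Tbx20 in morulae had −0.067.

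Same-numbered libraries deviated together with correlations of 0.294 in oocytes, 0.179 in morulae and 0.315 in ExE over only 2 pairs a stage, a hint from the data and not from the design. The replicate block takes matKO replicates 1 and 2 alone in ExE.

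In morulae, with totals of 1299715 to 1685510 counts, 28 of the 42 members were at or under 3 counts in every library, and changes in them were not detectable at this depth.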
